A study of Mus musculus with 24 samples.

Results

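The Schlafen genes are a cluster of interferon-inducible genes on mouse chromosome 11, and their transcripts were followed in the blood of young and old mice with and without whole-body x-rays. Members were taken by name: every probe whose gene name in the array annotation was *Slfn1*, *Slfn2*, *Slfn3*, *Slfn4*, *Slfn5*, *Slfn8* or *Slfn9*. This gave 7 of the 29742 gene names on the array, represented by 10 of 39429 probes. All 10 probes passed the filter on dim spots, as did 24130 probes in all, and all 7 genes were among the 17470 genes tested. The family was chosen by its values in young mice: the rise of *Slfn4* after irradiation, among the largest there, selected it. The young response is therefore given as a description, with no test.

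The study compared 4 groups of 6 male C57BL/6J mice: young unirradiated and young irradiated mice (2 months of age), and old unirradiated and old irradiated mice (21 months). Irradiated mice received 4 Gy, and blood was drawn by cardiac puncture 24 h later. RNA of 1 mouse was hybridised to each array, after reduction of globin transcripts, and the mice were from 1 strain and 1 sex. Values are log2 signals minus the median of each array, so a difference of 1 is a 2-fold difference, and levels are compared only within a probe.

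Schlafen proteins are found in mammals and are best known from leukocytes, where interferons, above all type I interferons, raise their transcription. In the mouse they fall into 3 groups by size. *Slfn1* and *Slfn2* encode the short proteins, linked to growth control and quiescence of T cells, and mice without functional Slfn2 lose T cells and monocytes. *Slfn3* and *Slfn4* encode the intermediate proteins, and *Slfn4* is known from activated myeloid cells. *Slfn5*, *Slfn8* and *Slfn9* encode the long proteins, which carry a helicase-like part.

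All 7 genes lie next to each other in the order *Slfn5*, *Slfn9*, *Slfn8*, the pseudogene *Slfn10-ps*, *Slfn2*, *Slfn1*, *Slfn4* and *Slfn3*, with *Slfn14* as the neighbour after *Slfn3*. In the RefSeq promoter table (GRCm38.p6, 250 bases before to 50 bases after a start, all 7 members found), the windows of *Slfn1*, *Slfn2*, *Slfn3* and *Slfn4* shared a run of 9 bases, ACTTCCTGG, always on the gene's own strand and between 74 and 34 bases before the start. The run was found by comparing these promoters, and 277 of the 32851 promoters in the table (0.843%) held it on either strand. It contains TTCC, the core that ETS family factors bind. The 4 stretches are shown because *Slfn1*, *Slfn3* and *Slfn4* differed most between irradiated and unirradiated young mice on the probe that stands for each gene. *Slfn2*, which differed little with the array median, holds the run too. A second, dimmer *Slfn5* probe differed by 2.61 on the log2 scale, more than *Slfn1*, and the *Slfn5* window lacks the run. The shared run is in capitals.
Slfn1: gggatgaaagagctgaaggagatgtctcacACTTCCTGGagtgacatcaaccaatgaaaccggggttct
Slfn2: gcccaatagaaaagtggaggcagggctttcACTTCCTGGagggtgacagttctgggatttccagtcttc
Slfn3: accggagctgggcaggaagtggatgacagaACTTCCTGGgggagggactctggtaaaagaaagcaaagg
Slfn4: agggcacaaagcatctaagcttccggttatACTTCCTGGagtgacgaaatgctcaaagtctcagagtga

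These stretches lie at chr11:83116716-83116784 (*Slfn1*), chr11:83065027-83065095 (*Slfn2*), chr11:83191258-83191326 (*Slfn3*) and chr11:83175083-83175151 (*Slfn4*), all on the plus strand. Between *Slfn1* and *Slfn4* the match ran on to 15 bases, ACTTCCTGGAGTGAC, which only these 2 promoters of the table held.

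The windows of the long members held another sequence. The core of the interferon-stimulated response element was searched as GAAANNGAAA on both strands, and it was found in *Slfn5*, *Slfn8* and *Slfn9* but not in the windows of *Slfn1* to *Slfn4*. Of all promoters in the table, 3.44% held it. The gamma-activated sequence, searched as TTCNNNGAA, was in no member's window and in 8.3% of all promoters. The 3 stretches with the interferon core are shown with the core in capitals, and in *Slfn8* and *Slfn9* it reads on the opposite strand.
Slfn5: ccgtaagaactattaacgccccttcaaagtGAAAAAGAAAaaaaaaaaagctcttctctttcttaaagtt
Slfn8: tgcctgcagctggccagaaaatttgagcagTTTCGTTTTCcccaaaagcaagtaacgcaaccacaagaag
Slfn9: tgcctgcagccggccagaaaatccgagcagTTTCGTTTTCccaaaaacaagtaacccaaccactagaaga

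They lie at chr11:82951917-82951986 on the plus strand (*Slfn5*), and at chr11:83020819-83020888 (*Slfn8*) and chr11:82991836-82991905 (*Slfn9*) on the minus strand, all in GRCm38.p6. A match is a string of letters in a window and was not tested as a site.

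The probes are 60 bases long. *Slfn1*, *Slfn2*, *Slfn3* and *Slfn4* have 1 probe each, and *Slfn5*, *Slfn8* and *Slfn9* have 2, of which the brighter stands for the gene. The *Slfn5* pair decides what is said about that gene, so the first 30 bases of both are shown.
A_55_P2047009: actgctttctgcagattgccccgccccatg
A_66_P128525: cttttcactagagccagagatatagaaaaa

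The brighter *Slfn5* probe, A_55_P2047009, is annotated to the transcript ENSMUST00000150687 (mm9, chr11:82765536-82765595). Its sequence matched the promoter window at positions -68 to -9 from the RefSeq start of *Slfn5*, outside the RefSeq transcript. The second probe, A_66_P128525, is annotated to the RefSeq transcript NM_183201 (mm9, chr11:82774907-82774966). They are treated below as separate readings. The *Slfn8* probe A_55_P2117656 and the *Slfn9* probe A_55_P2117649 shared a run of 19 bases, in capitals here, and cross-hybridisation between these paralogs was not tested.
A_55_P2117656: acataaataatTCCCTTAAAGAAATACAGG
A_55_P2117649: acataagtaacTCCCTTAAAGAAATACAGG

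The other member probes shared at most 14 bases with a probe of any other gene.

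Of facts common to all 24 arrays, the median signal ranged from 8.66 to 44.8, and 43.9% to 64.4% of the 43020 spots that are not controls were well above background. No member probe was saturated on any array. Old irradiated replicates 4 and 6 stood apart. They had the 2 lowest median signals (8.66 and 8.84). Their log2 values correlated with each other at r = 0.989, and with the other 4 old irradiated arrays only at 0.776 to 0.850, whereas those 4 correlated at 0.924 to 0.984 among themselves (r across the 17470 genes, which are not independent). The mean of 10 erythroid markers was 10.2 and 10.3 in them, against 5.51 to 6.54 in the other 4, and the mean of 12 monocyte markers was 4.29 and 4.44, against 6.36 to 6.95. Their part in the results was not tested, and results on old irradiated mice are given with and without them. In whole blood, a change in the share of a cell type and a change in RNA per cell cannot be told apart.

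In young mice, the intermediate and one of the short members were far higher 24 h after 4 Gy. *Slfn4* was 36.8-fold higher in irradiated than in unirradiated young mice, *Slfn3*, whose signal was well above background in only 2 of the 6 unirradiated mice, was 11.4-fold higher, and *Slfn1* was 3.04-fold higher. For these 3 genes every irradiated young mouse was above every unirradiated one, as was true of 9.57% of all genes tested. The sizes depended on how the arrays were scaled: over 6 scalings the log2 difference ran from 3.55 to 5.39 for *Slfn4*, from 1.43 to 3.74 for *Slfn3* and from 1.07 to 1.69 for *Slfn1*, lowest after normexp background correction. *Slfn8* was 1.72-fold higher with overlapping groups. With the array median, *Slfn2*, *Slfn9* and the upstream *Slfn5* probe differed by less than 0.3 on the log2 scale. Over the scalings *Slfn2* ran from 0.07 to 0.72, *Slfn8* from 0.68 to 1.17 and *Slfn9* from 0.01 to 0.27. The upstream *Slfn5* probe ran from -0.42 to -0.15.

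The log2 signal of *Slfn4* in the 6 unirradiated young mice was -1.33 at the lowest, 0.19 at the median and 0.91 at the highest. In the 6 irradiated young mice it was 4.53, 5.37 and 5.68. The lowest irradiated mouse was thus well above the highest unirradiated one, and the means were 0.064 ± 0.847 and 5.27 ± 0.403 (SD, n = 6 each). *Slfn3* had a lowest, median and highest log2 signal of -1.79, -0.97 and -0.40 in unirradiated young mice. In irradiated young mice these were 2.01, 2.54 and 2.84. After irradiation the signal was well above background in 6 of 6 mice, and the log2 difference was 3.51.

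*Slfn1*, the founding member of the family, went from a range of 1.01 to 2.09 (median 1.57) to a range of 2.71 to 3.61 (median 3.23), a log2 difference of 1.60. *Slfn2*, the other short member, had overlapping ranges of 5.80 to 6.21 and 5.86 to 6.77, with 3 of 6 irradiated mice above every unirradiated one and a difference of 0.30. With this scaling the neighbours *Slfn1* and *Slfn2* therefore gave very different values in the same mice.

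Among the long members, the 2 *Slfn5* probes disagreed in young mice. The upstream probe ranged from 6.42 to 7.85 in unirradiated and from 6.35 to 7.68 in irradiated young mice (difference -0.19). The probe in the RefSeq transcript ranged from -2.65 to -1.16 and from -0.22 to 1.21 (difference 2.61), with no overlap. Its signal passed the background limit in 6 of 6 irradiated young mice and in 1 of 6 without irradiation. For *Slfn8* both probes leaned the same way (0.78 and 0.52), and for *Slfn9* the differences of its probes were 0.08 and -0.33, with overlapping groups throughout.

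On the slide that held 2 irradiated and 2 unirradiated young mice, the log2 differences were 5.46 for *Slfn4*, 3.71 for *Slfn3*, 1.87 for *Slfn1* and 3.03 for the second *Slfn5* probe. The other young mice were on slides of a single treatment, where slide and irradiation cannot be told apart.

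**Figure D1:**
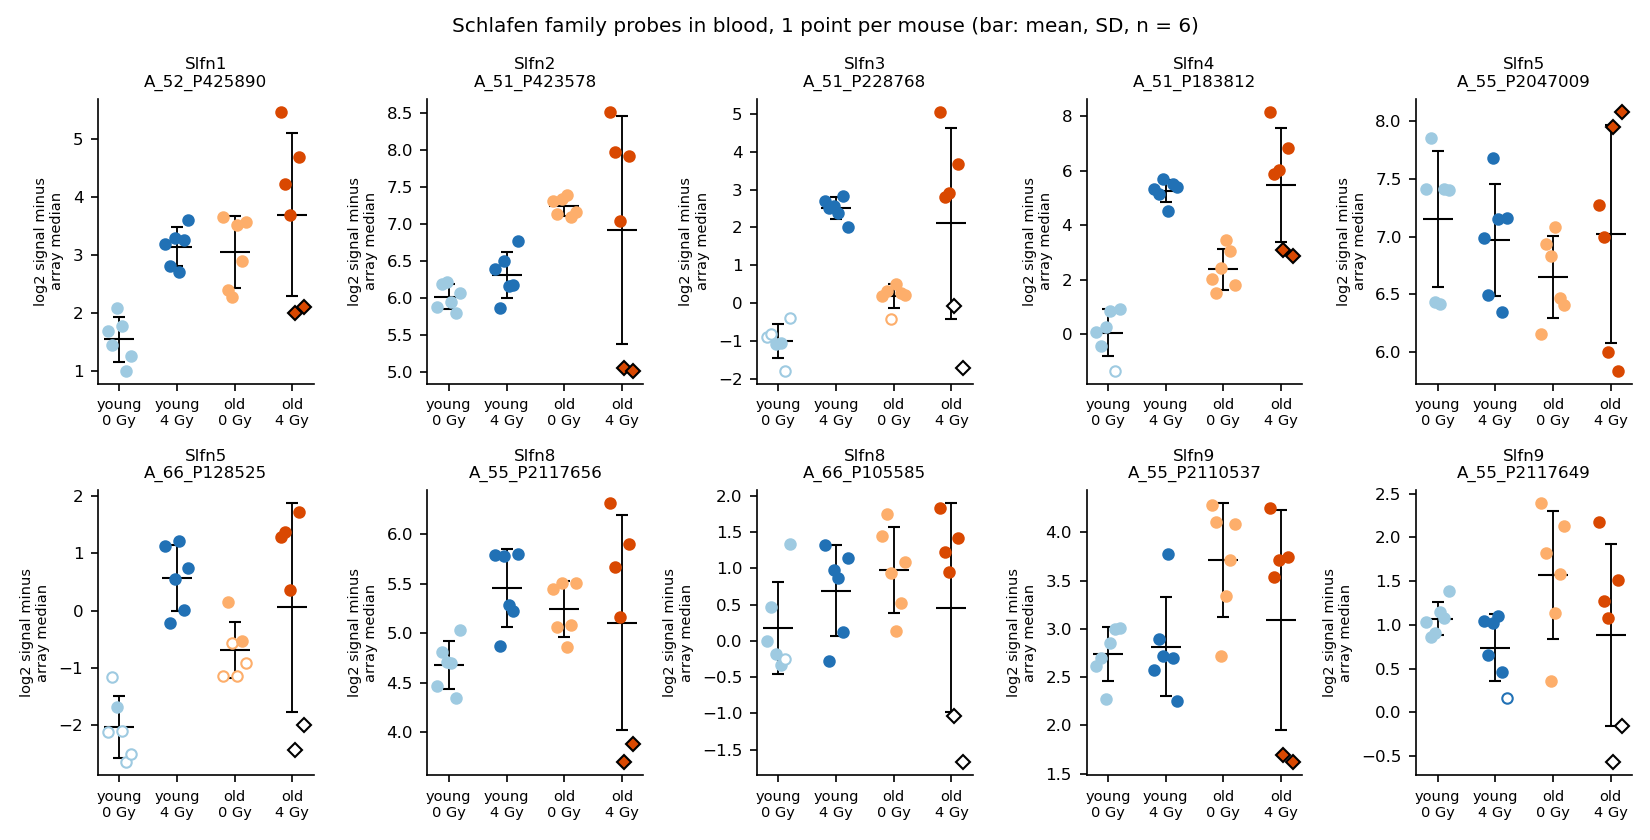
Log2 signal minus array median of the 10 Schlafen probes (y axis) in the 4 groups (x axis), 1 point per mouse, with bars for the mean and SD of 6 mice. Filled points were well above background, and diamonds mark old irradiated replicates 4 and 6. *Slfn4* in irradiated young mice lies between 4.53 and 5.68, above all unirradiated young mice, whereas the diamonds lie at 3.08 and 2.86.

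In old mice the question was whether the same genes answered to 4 Gy. *Slfn4* was 8.48-fold higher in irradiated than in unirradiated old mice (log2 difference 3.08, SE 0.804, limma adjusted p = 0.0107). It was the 1 member of 7 called, where 7.60% of all genes tested were called higher. Its exact two-sided permutation p was 0.0108 (6 against 6 mice, 924 splits). The call was lost without old irradiated replicate 5 (2.81), old unirradiated replicate 2 (2.91) or old unirradiated replicate 6 (2.96), and the difference stayed between 2.88 and 3.43 under 6 scalings, with a call under 5 of them (not after normexp). Over all genes, 30.4% of calls in old mice were higher with the array median, and 36.9% to 84.4% under the other scalings.

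The *Slfn4* log2 signals of the 6 old irradiated mice, replicates 1 to 6, were 8.15, 5.87, 6.01, 3.08, 6.82 and 2.86. In old unirradiated mice they were 2.03, 1.51, 2.43, 3.46, 3.06 and 1.79. Replicates 4 and 6 lay inside the range of the unirradiated mice and the other 4 irradiated mice above all of it. Without those 2 mice the *Slfn4* difference was 4.33 (SE 0.493, limma adjusted p = 0.00015). They have the 2 lowest *Slfn4* values of their group and were left out after the data were seen. Tests without them, here and below, are therefore no independent support.

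*Slfn3* showed the same split among mice. Its 6 old irradiated values were 5.06, 2.81, 2.92, -0.09, 3.69 and -1.73, and its old unirradiated values ran from -0.42 to 0.50. The values of irradiated replicates 4 and 6, and of unirradiated replicate 3, were not well above background. With all mice the difference was 1.94 (95% interval -0.03 to 3.90, limma adjusted p = 0.117), and without replicates 4 and 6 it was 3.44 (SE 0.393, limma adjusted p = 0.000153). Leaving out replicate 6 alone was enough for a call (2.70).

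For *Slfn1* the 6 old irradiated values were 5.47, 4.22, 3.69, 2.01, 4.70 and 2.10, against 2.28 to 3.65 in old unirradiated mice. Here 4 mice lay above and 2 below every unirradiated mouse, and the difference was 0.65 (95% interval -0.58 to 1.87, limma adjusted p = 0.393) with all mice and 1.47 (SE 0.386, limma adjusted p = 0.00921) without replicates 4 and 6. Thus 3 members were called without these 2 mice, where 11.9% of all genes tested were called higher.

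*Slfn2* in old irradiated mice was 8.51, 7.97, 7.04, 5.05, 7.92 and 5.02, on both sides of the narrow range of 7.09 to 7.39 in old unirradiated mice. Its difference was -0.32 (95% interval -1.55 to 0.91) with all mice and 0.62 without replicates 4 and 6 (limma adjusted p = 0.0551). The second *Slfn5* probe went the same way, with values of 1.29, 1.38, 0.36, -2.43, 1.73 and -2.0 against -1.15 to 0.15, and a difference of 0.74 (limma adjusted p = 0.42 over all probes) that was 1.88 without replicates 4 and 6. On this probe replicates 4 and 6 were not well above background, and only 2 of 6 old unirradiated mice were.

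The upstream *Slfn5* probe was the exception. Its 2 highest old irradiated values, 7.95 and 8.08, were those of replicates 4 and 6, and both were above the highest old unirradiated mouse (7.08). Its difference was 0.37 with all mice and -0.12 without those 2 (limma adjusted p = 0.487 and 0.766). *Slfn8* and *Slfn9* were not called with either set of mice, with differences of -0.14 and -0.62 for all mice (95% intervals -1.08 to 0.79 and -1.66 to 0.43) and 0.51 and 0.10 without the 2.

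On the slide that held 2 irradiated (replicates 1 and 2) and 2 unirradiated old mice, the differences were 4.59 for *Slfn4*, 3.70 for *Slfn3*, 1.61 for *Slfn1*, 1.11 for *Slfn2* and 2.05 for the second *Slfn5* probe. Irradiated replicates 3 to 6 shared a slide without unirradiated mice, where slide and irradiation cannot be told apart.

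**Figure D2:**
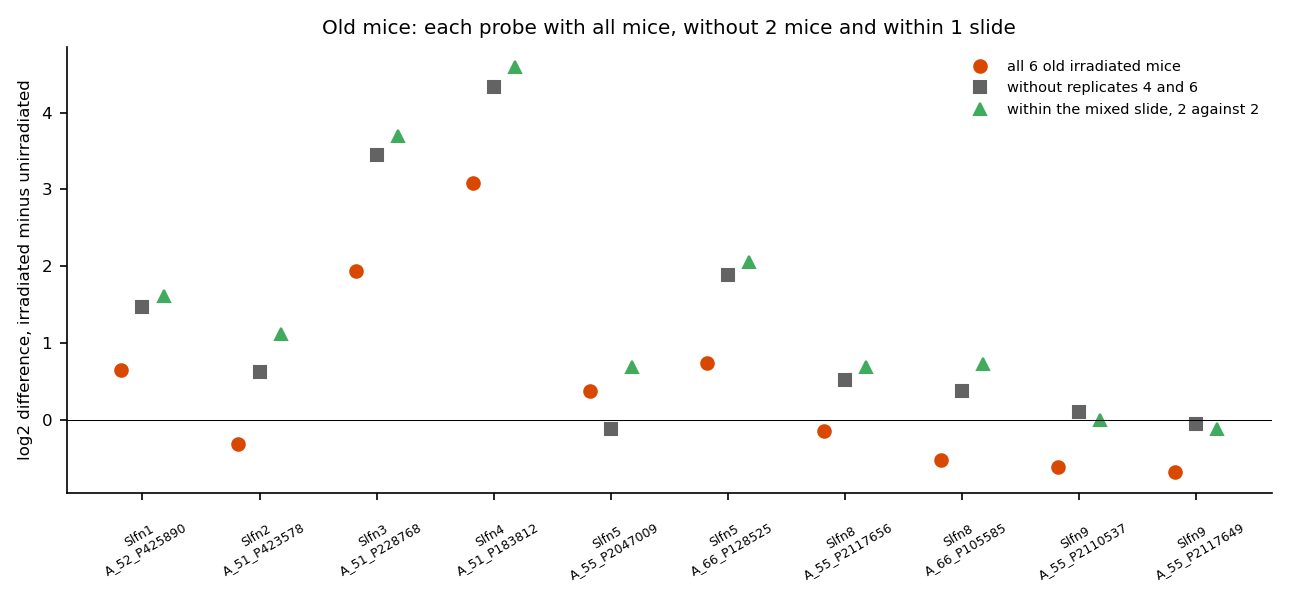
Difference between irradiated and unirradiated old mice (y axis, log2) for each of the 10 Schlafen probes (x axis), with all 6 irradiated mice (circles), without replicates 4 and 6 (squares) and within the slide that held both treatments (triangles). The circle of *Slfn3* is at 1.94 and its square at 3.44. The upstream *Slfn5* probe is the only one whose square lies below its circle.

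Before irradiation, most members were higher in old than in young blood. The *Slfn4* values of the young mice took part in choosing the family, so its comparisons between the ages are not independent of that choice. *Slfn4* was 4.98-fold higher in old unirradiated mice (log2 difference 2.32), *Slfn1* 2.84-fold (1.51, limma adjusted p = 0.000279), *Slfn2* 2.33-fold (1.22) and *Slfn3* 2.27-fold (1.18). *Slfn9* (0.97) and *Slfn8* (0.57) were also called, which makes 6 of 7 members, where 48.2% of all genes tested were called higher in old mice. The groups did not overlap for *Slfn1*, *Slfn2* and *Slfn4*, as was true of 37.3% of all genes. The call of *Slfn8* was lost in 8 of 12 fits that left out 1 mouse each (0.50 to 0.65). Old mice were all scanned on another day than young mice, so age and scan day cannot be told apart.

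*Slfn4* ran from 1.51 to 3.46 (median 2.23) in old unirradiated mice, above the highest young unirradiated value of 0.91. *Slfn2* had the least spread, 7.09 to 7.39 in old against 5.80 to 6.21 in young mice, and an exact permutation p of 0.00216, the smallest that 924 splits can give. *Slfn3* ran from -0.42 to 0.50 against -1.79 to -0.40, and only old unirradiated replicate 3 reached into the young range. *Slfn1* ran from 2.28 to 3.65 against 1.01 to 2.09.

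The 2 *Slfn5* probes pointed in opposite directions between the ages. The upstream probe was 0.50 lower in old mice (limma adjusted p = 0.0911). The probe in the RefSeq transcript was 1.35 higher (SE 0.275, limma adjusted p = 0.000682 over 24130 probes, of which 49.3% were called higher), with no overlap, though it was well above background in only 1 of 6 young and 2 of 6 old unirradiated mice. The second probes of *Slfn8* (0.81) and *Slfn9* (0.50) were higher but not called.

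These age differences depended on how the arrays were scaled. With the array median, all genes together were shifted by a median of 0.62 in old mice and 75.6% of calls were higher. Under 4 other scalings of the same signals the median was -0.11 to 0.11 and 7.71% to 42.5% of calls were higher, and after normexp background correction it was 0.18 with no gene called. Relative to the median of all genes, *Slfn4* was 1.69 higher, *Slfn1* 0.88, *Slfn2* 0.60, *Slfn3* 0.56 and *Slfn9* 0.34 higher, and *Slfn8* 0.06 and the upstream *Slfn5* probe 1.13 lower. *Slfn4* remained higher under all 6 scalings (0.76 to 2.32) and was called under 5, the exception being normexp. Its young values took part in choosing the family under any scaling, so these calls are no independent support. *Slfn1*, *Slfn2*, *Slfn3* and *Slfn9* also kept their direction under all 6 but were called under 3, 4, 2 and 1 of them, whereas *Slfn8* changed sign (-0.09 to 0.57). The upstream *Slfn5* probe was lower under the 5 scalings that retained it and was called lower under 4 of them.

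**Figure D3:**
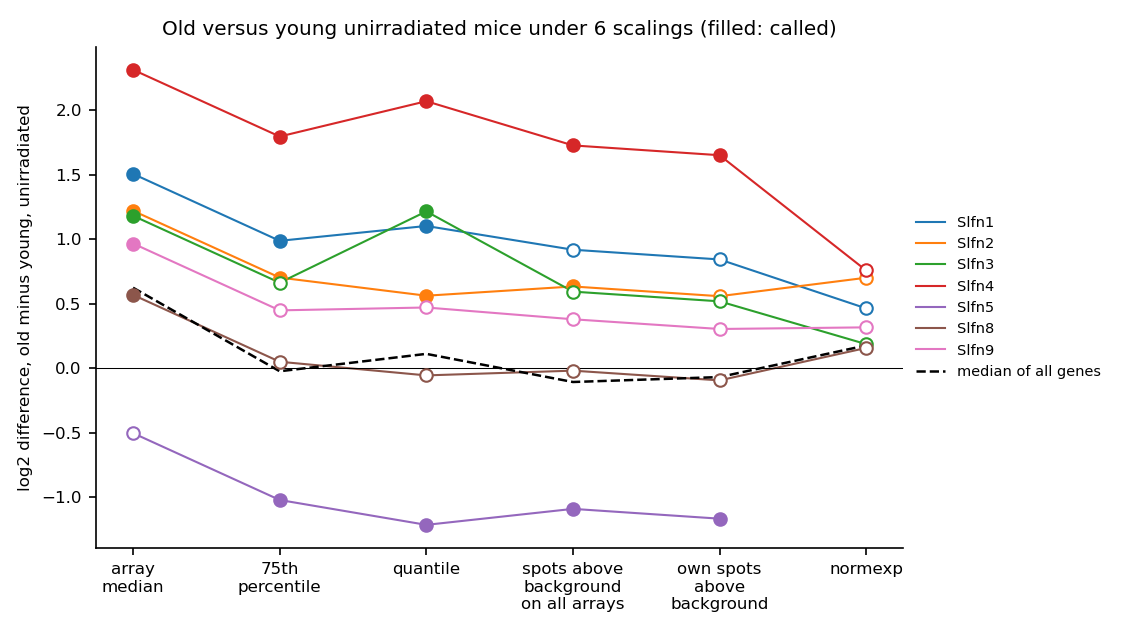
Difference between old and young unirradiated mice (y axis, log2) of the 7 genes under 6 scalings (x axis), with filled points for called genes and the median of all genes as a dashed line. *Slfn4* is the highest line throughout, from 2.32 down to 0.76, and *Slfn8* follows the median of all genes.

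None of the 7 members was called between old and young irradiated mice, where limma called 2.00% of all genes (350, and 33 to 504 with 1 mouse left out), and none had an unadjusted p under 0.05. The mean *Slfn4* level was 5.46 ± 2.10 in old and 5.27 ± 0.403 in young irradiated mice, a difference of 0.20 with a 95% interval of -1.47 to 1.87. In increasing order the *Slfn4* group means were 0.064 in young unirradiated, 2.38 in old unirradiated, 5.27 in young irradiated and 5.46 in old irradiated mice, of which the last 2 did not differ beyond their spread.

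Without old irradiated replicates 4 and 6, 3 members were called higher in old irradiated mice: *Slfn2* by 1.55 (SE 0.283, limma adjusted p = 0.00278), *Slfn1* by 1.38 (SE 0.324, adjusted p = 0.00778) and *Slfn9* by 0.99 (SE 0.281, adjusted p = 0.0175). Of all genes, 20.3% were then called higher, and the median difference of all genes was 0.34. This fit was made with the array median only, and here too age and scan day cannot be told apart. *Slfn4* (1.44) and *Slfn3* (1.11) missed the threshold of 0.005 for p, at 0.00563 and 0.0177.

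Whether old and young mice responded by different amounts was tested as an interaction over all 24 arrays, into which the young values that drew attention to the family enter. No member passed, and limma called 0 of all 17470 genes (0%), with 4112 genes at an unadjusted p under 0.05 and 0.0601 as the lowest adjusted p. Without old irradiated replicate 3 it called 1035 genes (5.92%), and without any other single mouse at most 7, and no member in any of these fits. *Slfn4* had the largest member estimate: its rise was 2.12 smaller in old mice on the log2 scale (95% interval of the difference -4.03 to -0.21, limma unadjusted p = 0.0308, adjusted p = 0.178). Without replicates 4 and 6 the *Slfn4* estimate was -0.87 (adjusted p = 0.522). For *Slfn3* it went from -1.58 to -0.07.

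**Figure D4:**
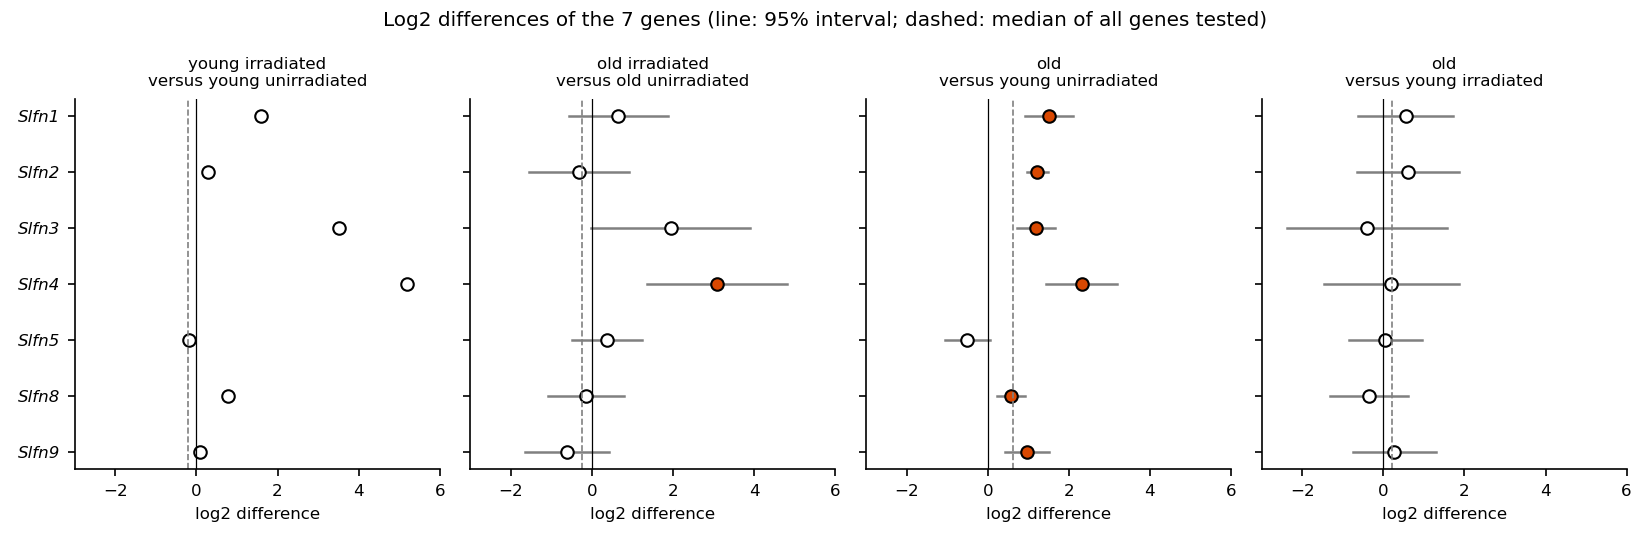
Log2 differences (x axis) of the 7 Schlafen genes (y axis) in 4 comparisons, with 95% intervals where a test was made and the median of all genes tested as a dashed line. Filled points were called, and the young comparison was not tested. The interval of *Slfn4* in old mice runs from 1.35 to 4.82, and between irradiated mice all intervals include 0.

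Interferon pathway genes were read from 2 lists. Of 34 tested interferon-stimulated genes, 28 were higher in every irradiated young mouse than in any unirradiated one and 1 was lower throughout, and the median difference of the list was 1.80 against -0.20 over all genes, of which 9.57% were higher and 15.4% lower throughout. In old mice 7 of the 34 were called higher after irradiation and 0 lower (median 0.37 against -0.25), which is 20.6% against 7.60% of all genes. Without replicates 4 and 6, 18 were called higher and 1 lower, or 52.9% higher against 11.9%. Between unirradiated old and young mice 16 were called higher and 0 lower (0.73 against 0.62), a share of 47.1% that was close to the 48.2% of all genes. Between irradiated mice 0 were called higher and 3 lower in old mice (0% and 8.82%, against 1.4% and 0.601% of all genes). Without replicates 4 and 6 these were 0 and 6 (0% and 17.6%, against 20.3% and 8.22%). The 3 brightest genes of the list, *Isg20*, *Rsad2* and *Isg15*, which act against viral RNA, in viral replication and as a ubiquitin-like modifier, were not among those called in old mice, with differences of 0.03, -0.54 and 0.46. In young mice their differences were -0.37, -1.50 and 0.34. Per mouse, the mean of 35 genes of this list was 5.59 to 6.08 in irradiated and 3.93 to 4.59 in unirradiated young mice. It was 5.36 to 6.15 in 4 old irradiated mice, 4.59 in replicates 4 and 6, and 4.54 to 5.35 in old unirradiated mice.

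Of 17 receptor and signalling genes tested, 14 were called higher and 0 lower in old than in young unirradiated mice (median 0.87 against 0.62 over all genes), or 82.4% against 48.2% of all genes with this scaling, among them *Jak1*, the kinase shared by interferon receptors (1.12), *Ifngr1*, a receptor chain for interferon gamma (1.07), and the transcription factor *Irf1* (1.11). After irradiation 0 were called higher and 3 lower in old mice (17.6% against 17.4% of all genes). The mean of these genes was 4.59 and 4.54 in replicates 4 and 6, 5.46 to 6.28 in the other 4 irradiated mice and 5.98 to 6.22 in unirradiated mice. Without replicates 4 and 6, 4 were called lower (23.5% against 22.8% of all genes). The median difference went from -0.57 to -0.15. In young mice 1 of the 17 was higher and 4 lower without overlap, as were 9.57% and 15.4% of all genes (median difference 0.13 against -0.20).

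Of the other Schlafen genes on the array, the pseudogene *Slfn10-ps*, between *Slfn8* and *Slfn2*, was 1.06 higher in old than in young unirradiated mice (SE 0.17, limma adjusted p = 0.000125). *Slfn14*, at the far end of the cluster and known from platelets and red cell precursors, differed by -0.06 (adjusted p = 0.845). Neither was called in old mice after irradiation, with all mice (-0.50 and 0.96) or without replicates 4 and 6 (0.28 and 0.58).

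Several blood cell markers moved with the groups. Of 15 macrophage markers, 12 were higher without overlap in irradiated young mice, against 9.57% of all genes. Their mean was 4.18 to 5.83 in irradiated against 1.06 to 3.27 in unirradiated young mice. In old irradiated mice it was 4.69 to 5.55 in replicates 2, 3 and 5, 1.92 and 2.00 in replicates 4 and 6, and 1.31 in replicate 1, the mouse with the highest *Slfn4* (8.15). That mouse also had the lowest mean of 13 hepatocyte markers of its group, 1.33 against 8.72 to 9.38 in replicates 2, 3 and 5 and -0.13 to 0.82 in old unirradiated mice. In irradiated young mice this mean was 9.13, 10.26 and 9.29 in replicates 2, 4 and 5 and 1.97 to 2.28 in the other 3, and in unirradiated young mice it was 0.98 to 6.41. Erythroid markers were 7.70 to 8.58 in unirradiated and 5.68 to 7.47 in irradiated young mice. Leaving out old irradiated replicates 2, 3 and 5 keeps replicates 1, 4 and 6, of which 4 and 6 stood apart. The *Slfn4* difference in old mice was then 2.31, with an SD of 2.99 among the 3 irradiated mice, and was not called. In that fit 1 of 7 members was called, the upstream *Slfn5* probe (1.12, all 3 irradiated mice above every unirradiated one). Of all genes, 40.5% were called in either direction, and 2796 of 17470 were called higher. Neutrophil markers (mean of 16) were 3.41 to 4.40 in unirradiated and 4.29 to 5.21 in irradiated young mice, and 4.83 to 6.68 and 5.27 to 7.46 in old mice. Monocyte markers (mean of 12) were 5.71 to 6.22 and 6.02 to 6.21 in young mice, and 6.93 to 7.61 in old unirradiated mice. B cell markers (mean of 12) were 5.58 to 5.99 in unirradiated and 2.48 to 3.35 in irradiated young mice. In old mice they were 5.89 to 6.86 and 1.60 to 3.89, and 11 of 12 were called lower, against 17.4% of all genes. T cell markers (mean of 14) were 6.02 to 6.32 and 3.53 to 5.25 in young mice, and 5.72 to 7.26 and 5.11 to 5.54 in old mice. Platelet markers (mean of 10) were 7.16 to 8.09 and 8.35 to 10.26 in young mice, and 8.37 to 9.39 and 10.16 to 11 in old mice. In old mice 10 of 10 were called higher, against 7.60% of all genes. Natural killer cell markers (mean of 10) were 3.72 to 5.05 and 4.37 to 6.38 in young mice, and 4.04 to 5.40 and 4.62 to 5.91 in old mice. Without overlap in young mice, 6 of 16 neutrophil, 3 of 12 monocyte, 7 of 10 platelet and 1 of 10 natural killer cell markers were higher. Of all genes, 9.57% were higher without overlap, close to the share of natural killer cell markers. Lower were 12 of 12 B cell, 10 of 14 T cell, 6 of 10 erythroid and 2 of 12 monocyte markers, against 15.4% of all genes. In old mice after irradiation, with all mice, 0 of 16 neutrophil, 0 of 10 natural killer cell and 0 of 10 erythroid markers were called. Without replicates 4 and 6, 6 of 10 erythroid markers were called lower (60% against 22.8% of all genes). Then 3 of 16 neutrophil (18.8%) and 2 of 10 natural killer cell markers (20%) were called higher, against 11.9% of all genes. With all mice, 3 of 14 T cell markers were called lower (21.4% against 17.4% of all genes). Of monocyte markers 1 of 12 was called higher (8.33% against 7.60%) and 4 lower (33.3%). Of macrophage markers 2 of 15 were called higher (13.3%) and 1 lower (6.67%), and of hepatocyte markers 11 of 13 higher (84.6%). Without replicates 4 and 6, 2 T cell, 5 monocyte, 1 macrophage and 12 B cell markers were called lower, against 22.8% of all genes. Then 2 monocyte, 3 macrophage, 13 hepatocyte and 10 platelet markers were called higher, against 11.9%. The part of these cells in the Schlafen values was not tested.

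**Figure D5:**
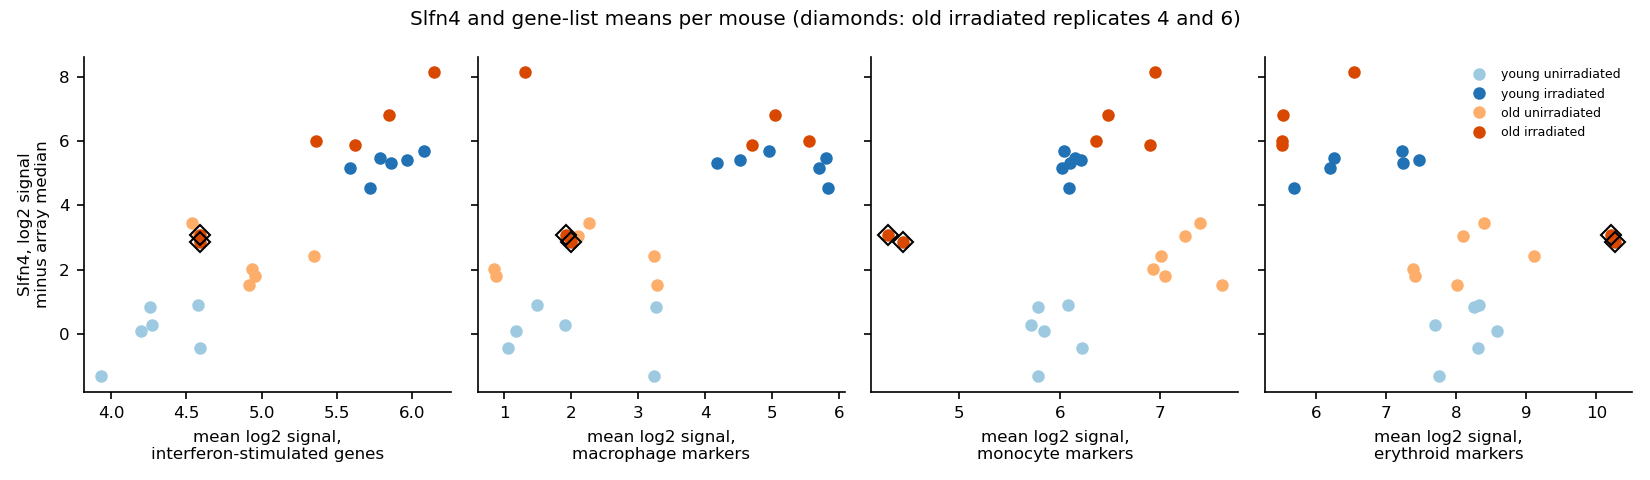
Log2 signal minus array median of *Slfn4* (y axis) against the mean log2 signal of 4 gene lists (x axes), 1 point per mouse, coloured by group, with diamonds around old irradiated replicates 4 and 6. The old irradiated mouse with *Slfn4* at 8.15 has a macrophage marker mean of 1.31 and an interferon-stimulated mean of 6.15, and the diamonds have erythroid means of 10.2 and 10.3.

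The genes whose pattern over the 24 arrays was most like that of *Slfn4*, among 15208 tested genes bright enough to pass the background limit on 12 or more arrays, were *Gab1* (r = 0.970), *Ypel2* (0.967), *Gnaq* (0.964), *Spry1* (0.953) and *Tor1aip2* (0.953). With group means removed their r was 0.822 to 0.902. Among those most like *Slfn2* were *Tbc1d14*, *Susd6*, *Zfp652* and *Ssh2* (r = 0.970 to 0.973, and 0.965 to 0.973 with group means removed). Within the family *Slfn3* followed *Slfn4* most closely (r = 0.933, or 0.885 with group means removed), and *Slfn8* followed *Slfn2* (0.803 and 0.939). These values describe 24 arrays that share scaling and groups. Much of the spread came from old irradiated mice: over the other 18 arrays, with group means removed, r was 0.484 for *Slfn3* with *Slfn4* and 0.701 for *Slfn8* with *Slfn2*.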

How the data were processed

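Blood RNA of 24 mice was hybridised to 1-colour (Cy3) Agilent mouse 4x44K arrays, 1 mouse per array. The authors deposited a scanner file per array, made with Feature Extraction 12.0.2, whose processed signals are intensity values on a linear scale, corrected for background, with probe coordinates in mm9. A second file that the authors deposited holds log2 values per probe, for 7 of the 10 member probes. How it was scaled is not given in the sources used here, and it served only as an alternative. From the processed intensity, spots of 1 probe were averaged, and the array median was subtracted on the log2 scale, after the authors' median normalization. Probes with uneven spots, or spots that did not significantly exceed background (a looser mark of the scanner software than well above background) in 25% or more of arrays were left out, the brightest probe stood for a gene, and genes had to differ 1.5-fold from their median in at least 20% of arrays.

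Comparisons used limma 3.58.1 in R 4.3.3 on the 12 arrays compared, and the interaction used all 24. Calls required p under 0.005 together with an adjusted p under 0.05 (Benjamini-Hochberg, over all genes tested). Comparisons that have a group in common share its arrays. Mice are separate animals. The number of arrays limits the precision. The scripts were tested on simulated data. Sequences came from RefSeq (GRCm38.p6).

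The members and lists were chosen with earlier results of these data known. All 7 members were named, with the 5 genes most like *Slfn4* and *Slfn2* (1 of them is not reported here), and up to 3 of the brightest genes of a list. Alternatives covered scaling, background, filters, probe choice, slide and replicate blocks, and left-out mice. Leaving out old irradiated replicates 4 and 6, scaling by each array's own bright spots and fitting each probe were chosen after seeing the data.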

Additional observations from a re-analysis of the deposited data

Results flagged for a closer look

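In old unirradiated mice, the *Slfn3* log2 signal of replicate 3 was -0.42 and not well above background, away from the nearest other mouse at 0.18. The gap was 0.658 of the range of the 6 mice, above the 95% critical value of Dixon's test. It was the 1 value to stand out in 40 groups looked at, and chance alone marks about 1 in 20 groups.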

How the results depend on the processing

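The number of members called between old and young unirradiated mice (6) was 2 with 1 fit of all 24 arrays, 2 when arrays were scaled by their own spots well above background, 3 with spots above background on all arrays, 0 after normexp and 2 in the authors' table. *Slfn5* was called lower under both of these scalings by bright spots, so 1 and 2 members were called higher, and with the 75th percentile and quantile normalization 3 and 4 were higher besides *Slfn5* lower. In old mice after irradiation (1), it was 3 without old irradiated replicates 4 and 6, 0 after normexp and 3 in the authors' table, and between irradiated mice (0) it was 3 without replicates 4 and 6. With 1 mouse left out at a time these counts were 5 to 6, 0 to 2 and 0 to 0, the interaction count was 0 to 0, and 3 to 4 genes did not overlap in young mice.

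Single differences that changed sign are given here, and the cause was not tested. With the 75th percentile, *Slfn4* and *Slfn5* between irradiated mice were -0.0287 and -0.17, and *Slfn8* in old mice was 0.16. With quantile normalization these were -0.14, -0.58 and 0.0552, and *Slfn8* between unirradiated mice was -0.0554. With spots above background on all arrays, *Slfn4*, *Slfn5* and *Slfn9* between irradiated mice were -0.0749, -0.22 and -5.646e-05, *Slfn2* and *Slfn8* in old mice 0.0295 and 0.20, and *Slfn8* between unirradiated mice -0.0186. With each array's own spots, *Slfn4* and *Slfn5* between irradiated mice were -0.0549 and -0.20, *Slfn2* and *Slfn8* in old mice 0.0282 and 0.20, and *Slfn8* between unirradiated mice -0.094. After normexp, *Slfn2*, *Slfn8* and *Slfn9* in old mice were 0.32, 0.48 and 0.0587, and *Slfn3* between irradiated mice 0.12. The authors' table holds only the second probes of *Slfn5*, *Slfn8* and *Slfn9*, so for these genes probe and processing changed together. In it, *Slfn3*, *Slfn4*, *Slfn8* and *Slfn9* between irradiated mice were 0.12, -0.15, 0.12 and -0.00741, and *Slfn8* in old mice was 0.0466. *Slfn5* was 1.04 between unirradiated mice and -0.35 in the interaction.

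The second *Slfn5* probe gave 1.35 between unirradiated mice, -0.52 between irradiated mice and -1.87 in the interaction, and the mean of its probes 0.42, -0.23 and -0.65. Without old irradiated replicates 4 and 6, *Slfn2*, *Slfn5*, *Slfn8* and *Slfn9* in old mice were 0.62, -0.12, 0.51 and 0.10, *Slfn3*, *Slfn5* and *Slfn8* between irradiated mice 1.12, -0.44 and 0.30, and *Slfn2* and *Slfn9* in the interaction 0.33 and 0.0213. Without replicates 2, 3 and 5, *Slfn2*, *Slfn4* and *Slfn9* between irradiated mice were -0.12, -0.57 and -0.30. With 1 mouse left out, *Slfn2* and *Slfn8* in old mice ranged from -0.64 to 0.0623 and from -0.38 to 0.14, and *Slfn3*, *Slfn4* and *Slfn5* between irradiated mice from -0.98 to 0.37, -0.34 to 0.72 and -0.16 to 0.29.

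Mice with the same replicate number did not deviate together (r = -0.286 to 0.335, and 3 of 12 correlated best with their own number). With the number as a replicate block, 1 member was called in old mice after irradiation, 5 between unirradiated mice (not *Slfn8*, 0.57) and 0 in the other comparisons.

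Calls over all genes moved with these settings too. Between unirradiated mice, 11141 genes were called, against 0 after normexp and 4448 to 6060 under the other scalings, in the authors' table and with 1 fit of all arrays. In old mice 4363 were called, against 64 after normexp and 2840 to 2845 with each array's own spots or the authors' table, and 7070 without replicates 2, 3 and 5. Between irradiated mice 350 were called, against 2 with the replicate block and 4978 without replicates 4 and 6. The interaction called 0, against 5962 without replicates 2, 3 and 5, and 26 without replicates 4 and 6.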
